A study of Mus musculus with 10 samples.

Results

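The Rab family of small GTPases was described in microglia, the resident macrophages of the brain, from mice given bacterial lipopolysaccharide (LPS) or saline. Members were the genes of the raw count table named Rab with a number and, for some, a letter, which gave 58 of 40789 genes. They were sorted by the traffic step each is best known for: 8 early endosome, 11 recycling, 10 late endosome, 25 secretory and 4 other members. Names follow the deposited table, in which Rab1, Rab7 and Rab9 stand without the letter a. All mice were 2 to 3 months old females of the strain C57BL6/J with the genotype CX3CR1+/egfp, so that every group carried 1 copy of the fractalkine receptor gene replaced by a green fluorescent reporter. The LPS group (n = 5) received 4 mg/kg into the peritoneum and the saline group (n = 5) received vehicle. Cortex was taken 24 h later, cells with high fluorescence were sorted, and each library came from 1 mouse. The gate reads the Cx3cr1 locus, whose own RNA ran from 3112 to 5104 CPM in saline and from 644 to 2124 CPM in LPS, and cells that lost fluorescence would not have been collected.

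Rab proteins are molecular switches that give membranes their identity. In the GTP form, which exchange factors (GEFs) produce on the target membrane, a Rab recruits effectors that move, tether and fuse vesicles. GTPase-activating proteins (GAPs) of the TBC domain family return it to the GDP form, and the extraction protein GDI carries it through the cytosol on its prenyl tail. Early endosome Rabs take in cargo, recycling Rabs send it back to the surface, late endosome Rabs deliver it to lysosomes and phagosomes, and secretory Rabs run the path from the endoplasmic reticulum through the Golgi to release. In macrophages and microglia this traffic handles engulfed particles, surface receptors and secreted factors.

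Levels below are CPM, the usual count rate relative to a library total adjusted by TMM, and all fold changes compare LPS with saline. A gene is said to have risen or fallen only where edgeR's quasi-likelihood test gave a Benjamini-Hochberg adjusted p under 0.05 over all genes tested. Libraries held 11577295 to 15274421 counts in saline and 12928007 to 15332121 in LPS, of which Rab genes took 0.258% to 0.278% and 0.248% to 0.279%. Of the 58 members, 43 passed the filter on low counts, and 1, Rab9b, had no count in any library. RNA from bulk sorted cells does not separate fewer cells of a type from less RNA per cell.

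Rab genes moved in both directions. Of the 43 members tested, 9 rose, 12 fell and 22 were not called. That is 48.8% called, beside 45.0% of all 13793 genes tested, with 20.9% of members higher beside 22.4% and 27.9% lower beside 22.5%. The 2 groups of mice did not overlap for 17 members, or 39.5%, beside 29.8% of all genes. Changes of at least 2-fold were called for 3 members upward (Rab32, Rab3d and Rab20) and 3 downward (Rab6b, Rab31 and Rab5b), which is 14% beside 20.3% of all genes (10.4% higher and 9.93% lower). The median log2 fold change of the tested members was -0.06, beside 0.00 over all genes, and the range ran from -2.00 (Rab6b) to 1.94 (Rab32). These shares lie near the background, so the results below concern single members and the balance among them. By traffic group the share called was 37.5% of early endosome, 42.9% of recycling, 71.4% of late endosome and 55.6% of secretory members tested. These groups are small and were not tested as sets.

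**Figure D1:**
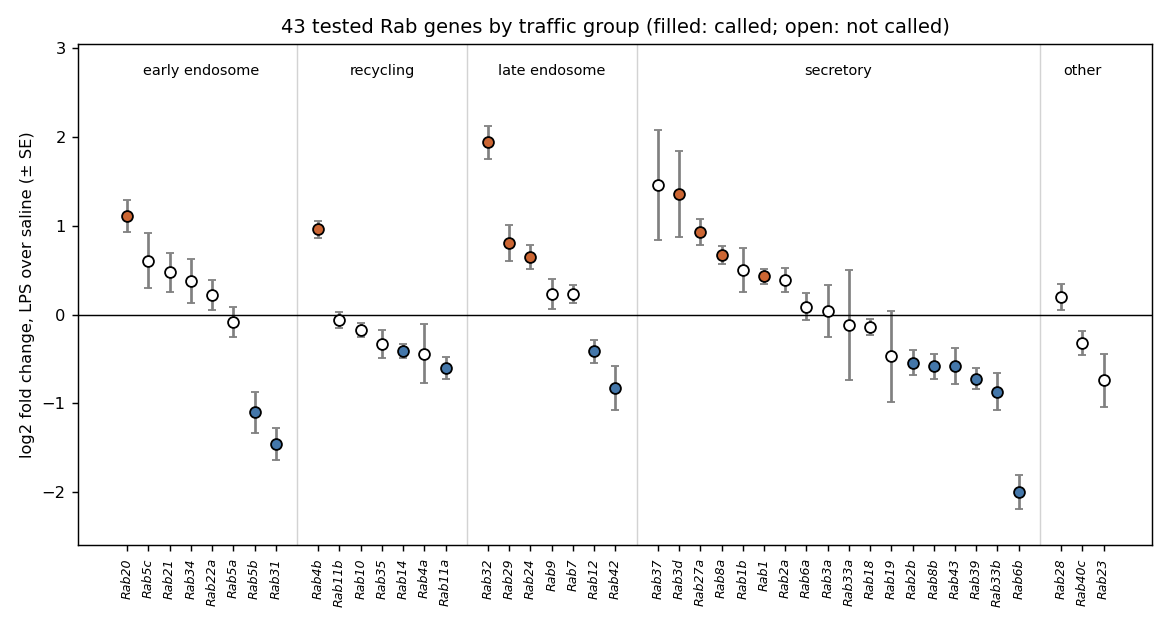
Log2 fold change, LPS over saline, of the 43 tested Rab genes by traffic group, with error bars of 1 standard error over 5 and 5 mice. Filled points passed the edgeR test and open points did not, and every group holds tested members on both sides of 0, from Rab6b at -2.00 to Rab32 at 1.94.

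The late endosome Rabs held the member with the largest rise. Of 7 tested, 3 rose (Rab32, Rab29 and Rab24) and 2 fell (Rab12 and Rab42), and their median log2 fold change was 0.23. The count of 5 called members was 3 without saline replicate 1 or 3, or without LPS replicate 1, 2, 3 or 5, through the calls of Rab12 and Rab42. Rab32 (Entrez gene 67844, chromosome 10, 10545039 to 10558207 on GRCm38) is a Rab of lysosome-related organelles and phagosomes. Its levels in the 5 saline mice were 91.3, 95.3, 85.1, 66.4 and 115 CPM, and in the 5 LPS mice 330.1, 387, 369.9, 238 and 416 CPM. Every LPS mouse lay above every saline mouse, and the lowest LPS value was LPS replicate 4. The mean went from 90.5 ± 17.4 to 348 ± 69.1 CPM (SD, n = 5 each), a 3.84-fold rise (log2 fold change 1.94 ± 0.19 SE, edgeR adjusted p = 1.95e-06). With each mouse left out in turn the fold lay between 3.60 and 4.15.

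Rab29, a close relative of Rab32 known for recruiting the kinase Lrrk2 to membranes, had 36.4, 36.8, 37.2, 28.6 and 45.4 CPM in saline and 67.4, 49.9, 75.0, 46.8 and 84.6 CPM in LPS. The groups did not overlap, although the lowest LPS mouse was only just above the highest saline mouse. Rab29 rose 1.75-fold (log2 fold change 0.81 ± 0.20, edgeR adjusted p = 0.00234). Rab24, linked to autophagy, rose from 20.2 ± 3.23 to 31.8 ± 4.09 CPM (edgeR adjusted p = 0.00400, log2 fold change 0.65 ± 0.14). Its exons overlap those of Prelid1 on the opposite strand, which rose from 20.7 to 52.0 CPM (edgeR adjusted p = 1.23e-04, log2 fold change 1.33). The sources used here do not say whether the counting used strand, and without it reads of these neighbours cannot be told apart.

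Rab7, the master Rab of late endosomes and of their fusion with lysosomes, was not called. It had 192, 235, 219, 188 and 254 CPM in saline and 228, 242, 268, 259 and 279 CPM in LPS. The LPS values sat in the upper part of the saline range or above it, and the groups overlapped. The means were 218 ± 28.3 and 255 ± 20.3 CPM (log2 fold change 0.23, 95% interval 0.01 to 0.46 from the spread between mice, edgeR adjusted p = 0.158). A pseudogene, Rab7-ps1, collected 208 to 291 raw counts in saline and 236 to 328 in LPS.

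Rab12, which directs the transferrin receptor to degradation, had 37.2, 30.4, 38.5, 39.5 and 29.1 CPM in saline and 22.8, 24.4, 25.1, 32.4 and 26.5 CPM in LPS. LPS replicate 4 lay inside the saline range. The fall was 1.33-fold (log2 fold change -0.41 ± 0.13, edgeR adjusted p = 0.0340). The call was lost without saline replicate 1, 3 or 4 or LPS replicate 1, 2, 3 or 5 (adjusted p up to 0.0833), and its direction depended on gene length, as described with the length trend. Rab42 had 3.16, 2.80, 3.72, 2.81 and 5.98 CPM in saline and 1.51, 1.54, 2.48, 2.60 and 2.19 CPM in LPS. These low values did not overlap, but the fall (log2 fold change -0.83 ± 0.25, edgeR adjusted p = 0.0468) was close to the threshold, and the call was lost without saline replicate 1, 3 or 5 or LPS replicate 1, 2, 3 or 5 (adjusted p up to 0.142). Rab9, which returns receptors from late endosomes to the Golgi, had 38.2 ± 6.80 and 44.8 ± 9.19 CPM and was not called (edgeR adjusted p = 0.278).

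The early endosome Rabs included 2 of the largest falls. All 8 members were tested; 1 rose (Rab20), 2 fell (Rab31 and Rab5b) and 5 were not called, and the median log2 fold change was 0.30. Rab31 (Entrez gene 106572, chromosome 17, 65651726 to 65772752 on GRCm38) carries cargo between the Golgi and endosomes. It had 252, 336, 273, 244 and 228 CPM in saline and 99.99, 79.6, 85.6, 139 and 79.8 CPM in LPS. The highest LPS mouse was well under the lowest saline mouse. Rab31 fell 2.75-fold (log2 fold change -1.46 ± 0.18, edgeR adjusted p = 2.05e-05).

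Rab5 proteins drive the fusion of incoming vesicles with early endosomes, and their 3 genes did not move alike. Rab5b had 56.9, 72.0, 56.8, 51.4 and 39.3 CPM in saline and 25.7, 22.1, 30.1, 34.5 and 16.8 CPM in LPS. The groups did not overlap and Rab5b fell 2.14-fold (log2 fold change -1.10 ± 0.23, edgeR adjusted p = 5.89e-04). Rab5a had 15.7, 12.1, 8.89, 11.9 and 14.1 CPM in saline and 12.2, 9.68, 10.5, 12.6 and 14.6 CPM in LPS. These values overlapped almost fully (log2 fold change -0.08, 95% interval -0.46 to 0.33, edgeR adjusted p = 0.756). Rab5c averaged 26.1 ± 9.35 and 39.9 ± 11.4 CPM and missed the threshold (log2 fold change 0.61 ± 0.31, edgeR adjusted p = 0.0590), but it was called higher under 11 of 22 other settings.

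Rab20 (Entrez gene 19332, chromosome 8, 11453390 to 11478640 on GRCm38), which acts on early endosomes and maturing phagosomes, was the early endosome member that rose. Its levels were 18.6, 17.2, 17.7, 18.8 and 20.7 CPM in saline and 55.2, 46.4, 38.1, 29.4 and 31.5 CPM in LPS. The saline mice were close to each other, and every LPS mouse lay above them. The rise was 2.15-fold (log2 fold change 1.11 ± 0.18, edgeR adjusted p = 2.11e-04). The members not called besides Rab5a and Rab5c were Rab21, which follows integrins into the cell, Rab22a, the closest relative of Rab31, and Rab34, a Rab of macropinosomes, with log2 fold changes of 0.48, 0.22 and 0.38.

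Among the recycling Rabs 7 of 11 were tested, 1 rose (Rab4b) and 2 fell (Rab11a and Rab14), with a median log2 fold change of -0.33. Rab4 proteins run the fast route from early endosomes back to the surface. Rab4b had 58.3, 51.9, 51.0, 48.0 and 60.7 CPM in saline and 109.9, 86.0, 104, 104 and 121 CPM in LPS. All LPS mice were above all saline mice, and the rise was 1.94-fold (log2 fold change 0.96 ± 0.10, edgeR adjusted p = 5.52e-05). Rab4a averaged 8.14 ± 1.99 and 6.01 ± 3.52 CPM and was not called (edgeR adjusted p = 0.274); without LPS replicate 5, at 12.3 CPM, it passed the threshold as lower (edgeR adjusted p = 0.0121, log2 fold change -0.86).

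Rab11a runs the slow route through the recycling compartment. It had 119, 109.5, 94.8, 113 and 128 CPM in saline and 79.2, 59.9, 88.0, 65.9 and 79.8 CPM in LPS. The groups did not overlap, and Rab11a fell 1.51-fold (log2 fold change -0.60 ± 0.12, edgeR adjusted p = 0.00335). Rab11b, its close relative, had 84.1 ± 10.3 and 80.6 ± 5.55 CPM (log2 fold change -0.06, 95% interval -0.26 to 0.15, edgeR adjusted p = 0.709). A processed copy, Rab11b-ps2, collected 313 to 405 raw counts in saline and 259 to 447 in LPS, so that the reads of Rab11b itself are uncertain.

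Rab14, which connects the Golgi with endosomes and is found on phagosomes, had 239.6, 222, 223, 262 and 211 CPM in saline and 155, 170.0, 183, 191 and 172 CPM in LPS. The fall was small, 1.33-fold, but the mice did not overlap (log2 fold change -0.41 ± 0.08, edgeR adjusted p = 0.0129). Rab10 brings transporters and receptors to the surface, Tlr4 of macrophages among them. Its levels were 62.4, 67.1, 62.6, 60.2 and 63.6 CPM in saline and 46.4, 53.5, 57.5, 61.9 and 62.3 CPM in LPS. The groups overlapped and Rab10 was not called (log2 fold change -0.17, 95% interval -0.36 to 0.02, edgeR adjusted p = 0.276). Its exons overlap Rab10os on the opposite strand, which had 166 to 296 raw counts in saline and 196 to 253 in LPS. Rab35, a Rab of fast recycling and phagocytic cups, had 51.2 ± 11.8 and 40.6 ± 4.50 CPM and was not called either (edgeR adjusted p = 0.104), but it was called lower with mouse-number range as a term (log2 fold change -0.40, edgeR adjusted p = 0.0439).

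The secretory Rabs were the largest group, and 18 of 25 were tested. Of these, 4 rose (Rab27a, Rab8a, Rab1 and Rab3d), 6 fell (Rab6b, Rab39, Rab33b, Rab8b, Rab2b and Rab43) and 8 were not called, with a median log2 fold change of -0.04. The members that rose act both at the start of the pathway (Rab1) and at its end (Rab27a, Rab3d and Rab8a). Rab27a (Entrez gene 11891, chromosome 9, 73044810 to 73097623 on GRCm38) docks secretory granules and exosome-forming endosomes at the plasma membrane. It had 50.4, 58.3, 56.4, 54.1 and 54.9 CPM in saline and 69.4, 103, 119, 124 and 106 CPM in LPS. The saline mice were tightly grouped, and LPS replicate 1 was the lowest treated mouse but still above them. Rab27a rose 1.90-fold (log2 fold change 0.93 ± 0.15, edgeR adjusted p = 2.60e-04).

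Rab8a carries vesicles from the Golgi to the surface and is a substrate of Lrrk2. Its levels were 169, 169.8, 186, 136 and 184 CPM in saline and 253, 236, 290.1, 267 and 296 CPM in LPS. With no overlap, Rab8a rose 1.59-fold (log2 fold change 0.67 ± 0.10, edgeR adjusted p = 9.46e-04). Its relative Rab8b went the other way, from 188 ± 20.3 to 126 ± 25.0 CPM (edgeR adjusted p = 0.00646, log2 fold change -0.58 ± 0.14), with 1 LPS mouse at 164 CPM above the lowest saline mouse at 158 CPM. Rab1, which moves vesicles from the endoplasmic reticulum to the Golgi, rose from 187 ± 17.7 to 252 ± 21.0 CPM without overlap (log2 fold change 0.43 ± 0.08, edgeR adjusted p = 0.0115). Rab3d, a Rab of regulated exocytosis, rose from 3.50 ± 1.33 CPM to between 3.77 and 14.2 CPM, with overlap between the groups (log2 fold change 1.36 ± 0.48, edgeR adjusted p = 0.0129).

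Rab6b (Entrez gene 270192, chromosome 9, 103111667 to 103185276 on GRCm38) had the largest fall of the family. It is the isoform of the Golgi Rab6 best known from neurons. Its levels were 56.2, 58.3, 49.5, 68.2 and 60.0 CPM in saline and 10.1, 16.9, 11.3, 18.3 and 16.3 CPM in LPS. The highest LPS mouse had less than the lowest saline mouse by a wide margin, and the fall was 4.01-fold (log2 fold change -2.00 ± 0.19, edgeR adjusted p = 1.38e-06). The summed level of 6 neuronal markers was 4.06 to 9.05 CPM in saline and 3.60 to 6.44 CPM in LPS, below that of Rab6b itself in every group. CPM is not divided by gene length, and the cell source of the Rab6b RNA was not tested. Rab6a averaged 22.9 ± 3.48 and 24.4 ± 4.02 CPM (log2 fold change 0.09, 95% interval -0.26 to 0.43, edgeR adjusted p = 0.676). Its exons overlap those of Mrpl48 on the opposite strand, so that without strand the reads of Rab6a are uncertain.

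Rab39, which acts between the Golgi, endosomes and phagosomes, had 56.7, 44.8, 61.4, 69.5 and 51.7 CPM in saline and 30.7, 37.9, 34.4, 35.2 and 33.9 CPM in LPS. The groups did not overlap, and Rab39 fell 1.65-fold (log2 fold change -0.72 ± 0.12, edgeR adjusted p = 8.22e-04). Rab33b, a Golgi Rab that binds the autophagy protein Atg16l1, fell 1.83-fold from 28.0 ± 3.19 CPM (edgeR adjusted p = 0.00293). Rab2b, of traffic between the endoplasmic reticulum and the Golgi, fell 1.45-fold from 52.7 ± 9.62 CPM (edgeR adjusted p = 0.00886), beside Tox4, an overlapping gene on the opposite strand that also fell (log2 fold change -0.62, edgeR adjusted p = 0.00338). Rab43, a Golgi Rab, fell 1.49-fold from 47.0 ± 12.3 CPM (edgeR adjusted p = 0.0218), and the call was lost without saline replicate 4 (edgeR adjusted p = 0.0657) or LPS replicate 2 (0.0530). The 8 members not called included Rab18 of lipid droplets (153 and 138 CPM), Rab1b, Rab3a and Rab2a. Rab2a, at 37.2 ± 5.32 and 48.7 ± 8.73 CPM, fell just short of the threshold (log2 fold change 0.39 ± 0.14, edgeR adjusted p = 0.05001), and was called higher under 9 of 22 other settings.

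**Figure D2:**
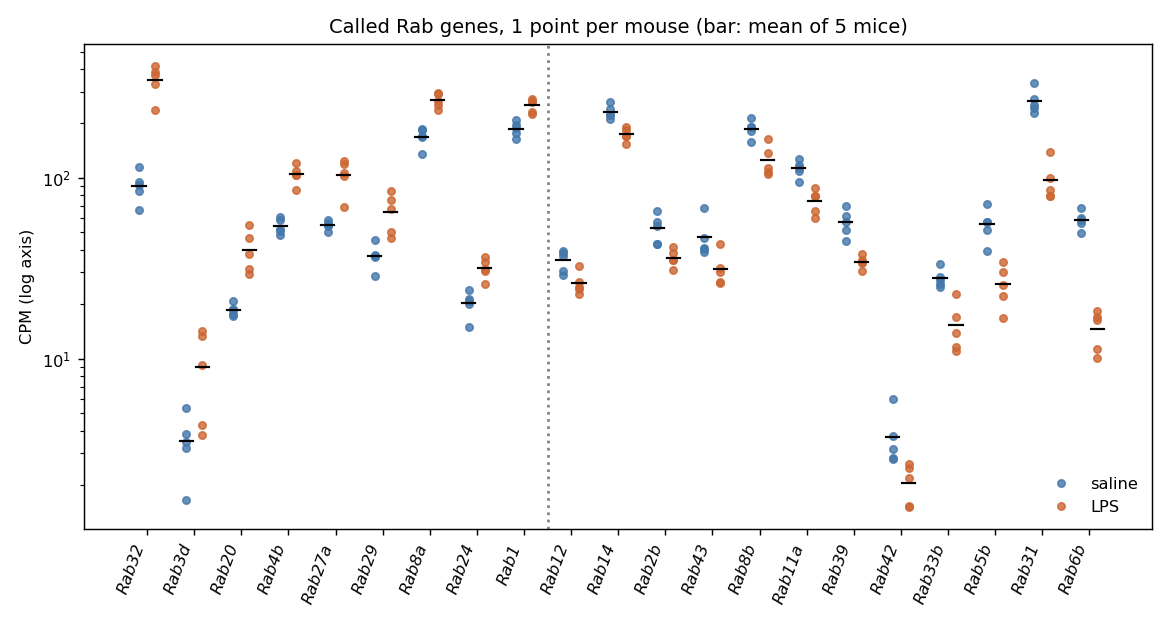
CPM on a log axis of the 21 called Rab genes, 1 point per mouse with bars at the means of 5 saline and 5 LPS mice; the 9 that rose stand left of the dotted line and the 12 that fell right of it. Rab32 reaches 238 to 416 CPM in LPS, and Rab6b drops to between 10.1 and 18.3 CPM.

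Of the 4 members placed in no step above, 3 were tested and none was called by edgeR. At an unadjusted p under 0.05 the count was 1, and DESeq2 called 0. Rab23, known from hedgehog signalling, had 5.31 ± 2.10 and 3.16 ± 0.816 CPM (edgeR adjusted p = 0.0659). Rab28, a Rab of cilia, had 16.9 ± 2.71 and 19.4 ± 3.40 CPM, and Rab40c, which belongs to a ubiquitin ligase, 26.7 ± 3.35 and 21.4 ± 3.75 CPM.

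The 15 members below the filter had at most 75 raw counts over the 10 libraries. They included Rab25 and Rab17 of epithelia, Rab3b and Rab3c of neuronal exocytosis, and Rab27b, the partner isoform of Rab27a, which had 3 counts in saline and 0 in LPS. Rab38, the closest relative of Rab32, had 0 counts in saline and 7 in LPS, all 7 of them in LPS replicate 4. In a fit with no filter, Rab36 (59 counts in saline, 12 in LPS, edgeR adjusted p = 0.0329) and Rab44 (0 counts in saline, 10 in LPS, edgeR adjusted p = 0.0414) passed the threshold. Counts this low limit the precision of such calls.

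Levels of different Rab genes were compared per length, on the RPKM scale of the authors' normalised table, which held 42 members. In saline the highest members were Rab8a (83.2 RPKM), Rab7 (82.3 RPKM) and Rab31 (76.1 RPKM), and their ranges over mice overlapped. In LPS the order began with Rab32 (171.6 RPKM), Rab8a (135.0 RPKM), Rab7 (98.4 RPKM) and Rab1 (95.9 RPKM). The ranges of Rab32 (114.8 to 206.1 RPKM) and Rab8a (120.0 to 149.9 RPKM) overlapped, so the top place was not separated from the next. Rab32 moved from rank 7 to rank 1 and Rab31 from rank 3 to rank 13 of the family.

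The summed level of the 42 members was 905.5 ± 58.7 RPKM in saline and 1096 ± 78.4 RPKM in LPS, a ratio of 1.21 with no overlap. As raw counts, not divided by length, Rab genes took overlapping parts of the libraries (0.258% to 0.278% in saline and 0.248% to 0.279% in LPS). Rab32 alone took 4.83% of the RPKM sum in saline and 15.65% in LPS. Without Rab32 the sums were 862 ± 49.9 and 925 ± 59.0 RPKM, and they overlapped. Late endosome members went from 21.3% ± 1.85 to 33.4% ± 2.90 of the family's sum (SD, n = 5 each). Leaving out Rab32 reduced this to 17.3% ± 1.40 and 21.1% ± 1.30, still without overlap, although the sums behind these shares (149.5 ± 19.96 and 195.5 ± 23.7 RPKM) did overlap.

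A share also moves when another member changes the total, so the sums of the other groups are given beside theirs. Early endosome members went from 135.5 ± 11.4 to 105.7 ± 11.64 RPKM, or from 15.0% ± 1.28 to 9.69% ± 1.35 of the family, without overlap on either scale. Rab31 alone went from 8.40% to 2.56% of the family. The other 7 early endosome members summed to 59.4 ± 3.72 RPKM in saline and 77.6 ± 9.39 RPKM in LPS, higher in every LPS mouse. Their share of the members other than Rab31 was 7.18% ± 0.583 and 7.29% ± 0.901, with overlap. Among them Rab20 went from 12.98 to 28.6 RPKM and Rab5b from 16.2 to 7.70 RPKM. Recycling members summed to 199.2 ± 11.2 and 185.3 ± 12.97 RPKM, which overlapped, while their share was 22.0% ± 1.18 and 16.9% ± 0.848, or 23.1% ± 1.16 and 20.03% ± 0.461 with Rab32 left out of the family, neither with overlap. Secretory members went from 358.2 ± 19.99 to 420.0 ± 23.6 RPKM, a ratio of 1.17 without overlap. Their share of the family was 39.6% ± 0.718 and 38.3% ± 1.03, with overlap, and 41.6% ± 0.661 and 45.4% ± 0.768, without overlap, when Rab32 was left out. RPKM divides by length, so short genes weigh more in it than in counts. LPS libraries were shifted toward short genes, as described with the length trend. The part of that shift in these sums and shares was not tested.

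**Figure D3:**
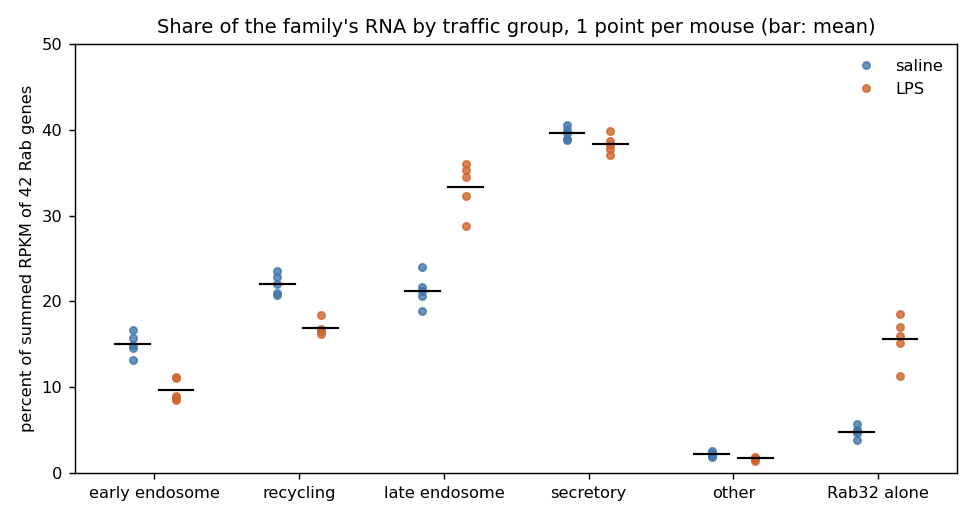
Percent of the summed RPKM of 42 Rab genes held by each traffic group and by Rab32 alone, which is also part of the late endosome group, 1 point per mouse with bars at the means. The late endosome share is higher in all 5 LPS mice and the early endosome and recycling shares are lower, but the summed RPKM of the recycling members overlaps (199.2 and 185.3), that of the secretory members does not (358.2 and 420.0), and the early endosome share includes Rab31 (8.40% and 2.56%). Sums and shares were not corrected for the length trend.

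Many Rab proteins exist as close isoforms, and the balance within such sets was followed as each gene's percent of the set's summed RPKM. Rab6b held 62.65%, 68.79%, 56.41%, 65.51% and 60.07% of the Rab6 pair in saline and 25.28%, 35.15%, 22.19%, 29.88% and 28.07% in LPS. The majority isoform therefore differed between every saline and every LPS mouse. In the Rab5 set, Rab5b went from 47.4% ± 11.7 to 23.8% ± 7.48 and Rab5c from 37.4% ± 11.0 to 60.8% ± 7.87, both without overlap, while Rab5a stayed within overlapping ranges at 15.2% ± 2.41 and 15.4% ± 1.51. Rab8a held 67.9% ± 4.26 of the Rab8 pair in saline and 83.4% ± 3.76 in LPS. Rab4b held 83.0% ± 3.35 and 93.0% ± 2.92 of the Rab4 pair, and Rab2a 46.1% ± 6.92 and 61.4% ± 5.36 of the Rab2 pair. Rab11a went from 77.9% ± 2.01 to 70.7% ± 3.94 of the Rab11 pair, and Rab31 from 94.5% ± 1.13 to 84.2% ± 3.87 of its pair with Rab22a. None of these 5 pairs overlapped between groups. For Rab11a the lowest saline mouse (75.64%) was barely above the highest LPS mouse (75.56%). For Rab2a the highest saline mouse (55.82%) was barely below the lowest LPS mouse (55.91%). No such share was computed for pairs of other genes, and 29.8% of all single genes tested did not overlap. The Rab1 pair did overlap, with Rab1 at 83.3% ± 2.76 and 82.8% ± 3.69, and so did the pair of Rab3a and Rab3d. Isoforms share sequence, and reads that match more than 1 of them could be assigned in ways that the sources used here do not describe. The length trend described below was not removed from these shares. It was 0.26 for Rab8a and -0.31 for Rab8b, 0.27 for Rab5c and -0.12 for Rab5b, and -0.10 for Rab6a and -0.33 for Rab6b. For Rab2a it was 0.17 with Rab2b at 0.04, and for Rab31 -0.13 with Rab22a at 0.29. In all of these sets it ran in the direction of the change of share. It ran against the change of share for Rab4b (0.22, with Rab4a at 0.40) and Rab11a (0.16, with Rab11b at -0.40).

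**Figure D4:**
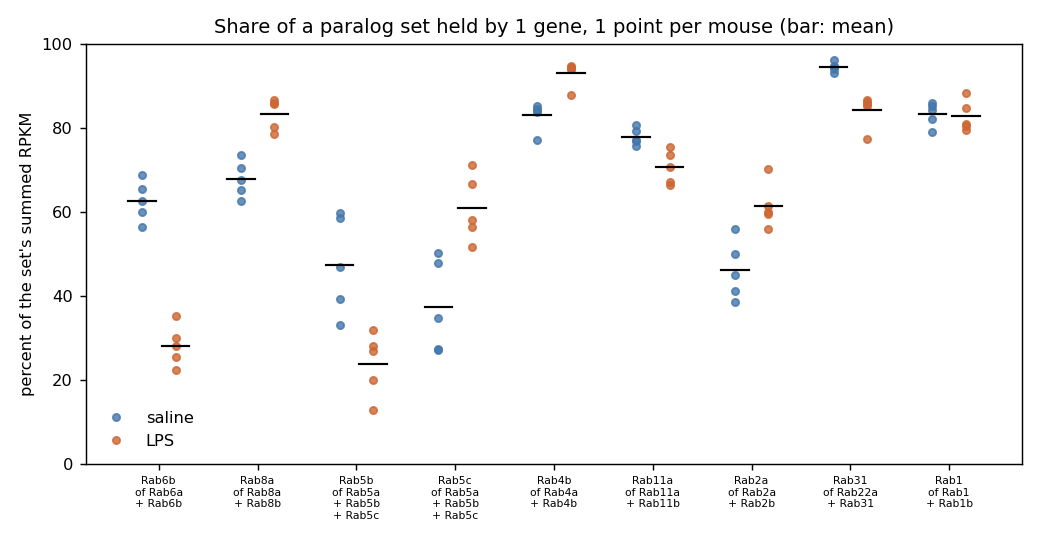
Percent of a set's summed RPKM held by the named gene, 1 point per mouse with bars at the means of 5 saline and 5 LPS mice. The points of the 2 groups do not overlap for Rab6b (56.41% or more against 35.15% or less), Rab8a, Rab5b, Rab5c, Rab4b, Rab11a, Rab2a and Rab31, and are mixed for Rab1. They nearly touch for Rab11a (75.64% in saline, 75.56% in LPS) and Rab2a (55.82% in saline, 55.91% in LPS).

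Promoter windows were examined because the members that rose shared a direction. RefSeq (GRCm38.p6) windows of 300 bases, 250 before and 50 after the transcription start, were given for 48 of the 58 members, 60 windows in all. They were searched on both strands for the interferon response core GAAANNGAA, the kappaB site, the AP-1 site TGANTCA, the STAT site TTCNNNGAA and the E-box CACGTG known from lysosomal genes. The E-box stood in 3 of the 10 windows of members that rose (30%), in 0 of the 15 windows of members that fell, in 3 of the 22 windows of members not called (13.6%), in 6 of all 60 Rab windows (10%) and in 7.15% of all 32851 windows. The interferon core stood in 1 of the 10 windows, beside 8.56% of all windows, and the kappaB, AP-1 and STAT sites in 0 of 10, beside 8.46%, 7.81% and 8.30%. Below, matches are in capitals in the windows of Rab20 (chr8:11478591-11478890, minus strand), Rab24 (chr13:55321931-55322230, minus strand) and Rab27a (chr9:73063898-73064197, plus strand, the second of its 2 windows), each written 5′ to 3′. The window of Rab32 (chr10:10558158-10558457, minus strand) is printed beside them because that gene rose most, and it holds none of the 5 motifs. The windows of Rab1, Rab29, Rab3d, Rab4b and Rab8a and the first window of Rab27a also hold none and are not printed.
Rab20: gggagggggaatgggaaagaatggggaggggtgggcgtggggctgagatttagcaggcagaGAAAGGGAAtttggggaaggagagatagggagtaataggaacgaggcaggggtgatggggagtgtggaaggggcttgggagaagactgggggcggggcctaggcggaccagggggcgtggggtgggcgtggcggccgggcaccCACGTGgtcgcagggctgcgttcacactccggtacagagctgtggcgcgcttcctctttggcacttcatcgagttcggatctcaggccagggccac
Rab24: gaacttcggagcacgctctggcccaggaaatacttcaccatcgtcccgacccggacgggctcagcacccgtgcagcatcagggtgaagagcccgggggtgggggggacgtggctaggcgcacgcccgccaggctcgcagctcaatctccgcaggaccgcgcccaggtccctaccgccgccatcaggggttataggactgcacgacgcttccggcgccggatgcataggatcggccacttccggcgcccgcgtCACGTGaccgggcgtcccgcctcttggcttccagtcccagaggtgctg
Rab27a: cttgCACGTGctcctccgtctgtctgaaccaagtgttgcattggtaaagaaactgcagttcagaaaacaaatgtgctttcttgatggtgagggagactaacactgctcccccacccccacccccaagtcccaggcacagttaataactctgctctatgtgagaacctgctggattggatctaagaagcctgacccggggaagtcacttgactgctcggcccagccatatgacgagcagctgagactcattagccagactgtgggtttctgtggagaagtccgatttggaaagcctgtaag
Rab32: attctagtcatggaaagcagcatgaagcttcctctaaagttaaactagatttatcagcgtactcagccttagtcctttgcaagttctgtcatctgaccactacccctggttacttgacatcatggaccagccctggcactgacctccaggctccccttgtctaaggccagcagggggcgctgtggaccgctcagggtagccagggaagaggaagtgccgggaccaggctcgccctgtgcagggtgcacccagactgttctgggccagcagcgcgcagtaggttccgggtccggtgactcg
Counting from 1 at the start base and -1 at the base before it, the E-box begins at position -46 in Rab20, 3 in Rab24 and -246 in Rab27a, and the interferon core of Rab20 (GAAAGGGAA) at -189. No match overlapped another. A match is a run of letters in a window, not a shown binding site.

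The machinery that switches Rabs was followed by lists of partner genes. These lists were not set beside the gene-length trend described below. Of 33 tested exchange factors, 14 fell and 0 rose. All of the 42.4% called were thus lower, beside 22.5% lower, 22.4% higher and 45.0% called of all genes. The median log2 fold change of the list was -0.32 beside 0.00. At an unadjusted p under 0.05 the number higher was also 0, and DESeq2 called 0 higher. Dennd6a, an exchange factor of Rab14, fell 3.39-fold from 78.3 ± 9.21 CPM (edgeR adjusted p = 4.24e-07). Sbf2, which acts on Rab28 and Rab21, fell 2.81-fold from 111.5 ± 15.5 CPM (edgeR adjusted p = 9.27e-07), and Rab3gap1, a subunit of a complex for Rab3 and Rab18, fell 2.66-fold to 26.7 ± 4.05 CPM (edgeR adjusted p = 7.08e-06). The GAPs had 31 tested members, 11 of which fell and 2 rose (41.9% called, median -0.49, beside the same shares of all genes). They included Tbc1d5, which acts on Rab7 (103.0 ± 10.5 to 44.2 ± 3.12 CPM, edgeR adjusted p = 3.65e-06), Tbc1d4, which acts on Rab10 (14.96 ± 1.14 to 6.40 ± 1.11 CPM, edgeR adjusted p = 1.04e-04) and Usp6nl, which acts on Rab5 (12.55 ± 1.41 to 5.13 ± 1.69 CPM, edgeR adjusted p = 5.02e-04).

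Of the 8 genes for prenylation and extraction, 3 rose and 3 fell, 75% called beside 45.0% of all genes. Rabggtb, the catalytic subunit that attaches the prenyl groups, rose 1.65-fold (edgeR adjusted p = 2.60e-04), and Rabif 1.48-fold (edgeR adjusted p = 0.00426). Chm, the escort protein that presents Rabs to this enzyme, fell 1.84-fold (edgeR adjusted p = 2.89e-04).

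Effectors are the proteins that active Rabs recruit. Of 13 early endosome effectors 2 rose and 7 fell, 69.2% called beside 45.0% of all genes (22.4% higher and 22.5% lower). Snx1, a sorting nexin, rose from 115.8 ± 9.57 to 328.0 ± 30.3 CPM (edgeR adjusted p = 7.17e-07), while the Rab5 effector Rabep1 fell 1.82-fold and Tgfbrap1, a subunit of the tether CORVET, fell 1.67-fold. Of 13 recycling effectors 2 rose and 2 fell (30.8% called). Ehd1, an ATPase that cuts recycling tubules, rose 34.3-fold from 1.28 ± 0.684 to 43.9 ± 13.4 CPM (edgeR adjusted p = 1.67e-07), and the Rab35 effector Acap2 and the Rab11 effector Rab11fip2 fell 2.05-fold and 1.71-fold.

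Of 20 late endosome effectors 2 rose and 10 fell, 60% called beside 45.0% of all genes (22.4% higher and 22.5% lower). Their median log2 fold change was -0.38 beside 0.00. Vps35 of the retromer fell from 287 ± 38.6 to 139.6 ± 22.0 CPM and Vps41 of the tether HOPS from 140.2 ± 18.4 to 69.3 ± 12.8 CPM, while the Rab9 effector Rabepk rose 1.91-fold. Of 14 secretory effectors 1 rose and 6 fell (50% called). The Golgi stacking protein gene Gorasp2 rose 1.76-fold, and Rab3ip, an exchange factor for Rab8, and Exoc2 of the exocyst fell 2.20-fold and 1.78-fold.

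Counts of the LPS libraries were shifted from long toward short genes, and each Rab gene was set beside that trend. The trend at a member's length ran from -0.49 (log2, LPS minus saline) for Rab12, at 2.66 times the median length, to 0.45 for Rab20, at 0.453 times the median. With the trend removed from each library 8 members were higher and 12 lower, of 42 tested. Of all 13199 genes tested in that fit, 2654 were higher and 2431 lower (38.5% called). Rab32 had a log2 fold change of 1.70, Rab6b -1.68, Rab31 -1.33, Rab27a 1.10, Rab5b -0.99, Rab4b 0.74, Rab20 0.66, Rab8a 0.42 and Rab29 0.35, and all of these calls held. The fall of Rab12 did not hold, its log2 fold change being 0.07 (edgeR adjusted p = 0.649). The calls of Rab24 (0.36, edgeR adjusted p = 0.0623), Rab43 (-0.25, edgeR adjusted p = 0.201) and Rab8b (-0.26, edgeR adjusted p = 0.180) were lost, and Rab35 (-0.51), Rab40c (-0.44) and Rab4a (-0.88) were called lower. The part of the trend that comes from the amplified libraries and the part that comes from the cells cannot be told apart here.

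**Figure D5:**
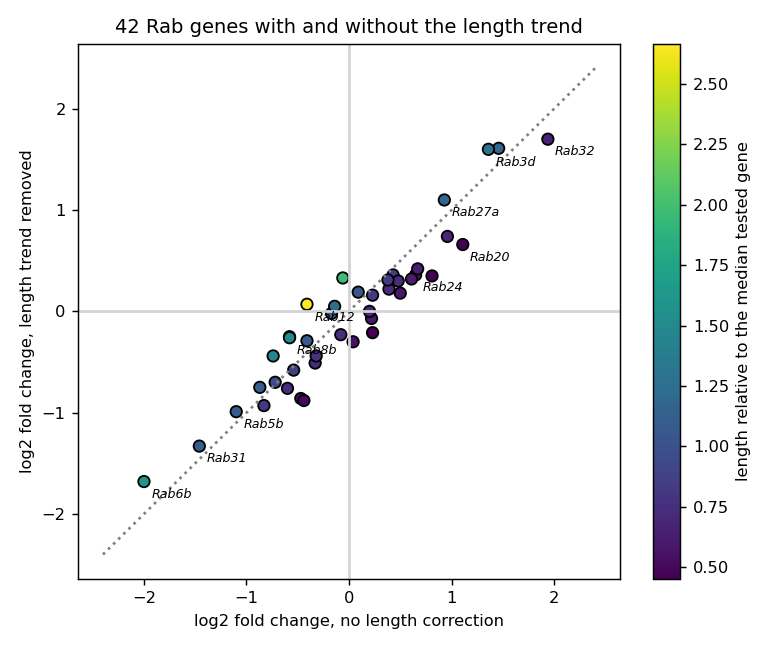
Log2 fold change of 42 Rab genes without the length correction (horizontal) and with each library's length trend removed (vertical), coloured by gene length relative to the median; the dotted line marks equal values. Rab32, Rab6b and Rab31 stay far from 0 on both axes, and the longest member, Rab12, goes from -0.41 to 0.07.

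Markers of other cells moved beside these results. Of 10 microglial markers 6 fell, and their sum went from between 59752 and 67403 CPM to between 17014 and 37396 CPM. Neutrophil markers summed to 0.749 to 1.85 CPM in saline and 28.95 to 579 CPM in LPS, of which 2 of 2 tested rose. Lcn2 gave most of it (26.9 to 557 CPM), and Cxcr2 went from at most 0.427 CPM to between 1.34 and 7.99 CPM. S100a8, Mmp8, Ngp and Retnlg reached 9.08, 7.83, 5.70 and 4.06 CPM in LPS, each with a lowest LPS value of 0. Ly6g was 0 in saline and at most 0.157 CPM in LPS. The monocyte sum was 14.4 to 22.3 and 78.1 to 219 CPM, with 3 of 6 tested markers higher and 2 lower. Ms4a4c had 2.63 to 6.48 CPM in saline and 45.6 to 157 CPM in LPS, and Fn1 at most 0.323 and then 21.0 to 47.9 CPM. Ccr2 had 5.98 to 13.4 CPM in saline and 0.939 to 4.58 CPM in LPS, and Ly6c2 was 0 in saline and at most 0.634 CPM in LPS. Border macrophage markers summed to 9.84 to 14.8 and 24.0 to 42.8 CPM, with 2 of 3 tested higher, and endothelial markers to 53.1 to 78.9 and 6.50 to 12.2 CPM, with 2 of 2 lower and Cldn5 at 0 in all libraries. Oligodendrocyte markers (103 to 129 and 90.2 to 118 CPM), astrocyte markers (6.36 to 10.5 and 5.98 to 12.1 CPM) and the neuronal markers had 0 members called by edgeR. Of 6 markers each, only 4 astrocyte, 5 oligodendrocyte and 1 neuronal marker (Snap25) passed the filter and were tested. At an unadjusted p under 0.05 the numbers were 2, 1 and 0 in that order, and DESeq2 called 1, 0 and 0. T and B cell markers summed to at most 1.004 CPM. The part of these cells in the Rab values was not tested.

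Mouse numbers in the labels fell into 3 ranges, each with mice of both groups. Of the 21 called members, 20 had the same direction in all 3 ranges. Rab32 had log2 ratios of 1.94, 2.29 and 1.51. Rab12 was the exception, with -0.52, -0.64 and 0.02. With the range as a term in the fit, the call of Rab12 was lost (log2 fold change -0.40, edgeR adjusted p = 0.0603), Rab35 was called lower, and the calls of the other tested members did not change.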

How the data were processed

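RNA of sorted microglia was measured in 10 libraries, 5 per group, each from 1 mouse. Per the labels' protocols, 5 ng of RNA were amplified with a SMARTer kit and 6 ng went into Ovation libraries. The authors deposited raw counts per gene, and the submitters' processing notes name featureCounts and the builds GRCm38 and mm10. The sources used here do not state the aligner, although the authors' normalised table carries the name CRAC. They do not give the versions, the annotation or the use of strand either. The authors also deposited RPKM values for 13199 genes. Above a minimum count and RPKM per entry, these equal the counts multiplied by a library factor and a gene factor, within 5%. Lower entries were not checked. The count table held 40789 genes, and 1 row without a gene name was left out.

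All genes were fitted together in edgeR 4.0.16 (R 4.3.3) on the counts (TMM factors, filterByExpr, quasi-likelihood F test, Benjamini-Hochberg at 0.05, no covariate). Standard errors and 95% intervals came from log2 CPM with a prior count of 2. The fit was tested on simulated data. Level sums and isoform shares used RPKM without a test. Coordinates and promoters came from RefSeq on GRCm38, and exon overlaps from GENCODE M21, which listed an overlap for 20 of the 58 members and 8 of the 21 called. Alternatives were other scalings and filters, DESeq2 1.42.0, limma 3.58.1 (voom, and log2 of RPKM plus 1 or 0.1), a term for mouse-number range, removal of the gene-length trend, and each mouse left out.

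Values per mouse are given for those 2 called members whose adjusted p was lowest in each direction of each traffic group, and for Rab5a, Rab7, Rab11a, Rab27a, Rab32, Rab20, Rab8a, Rab10 and Rab29. Of each partner list, the 3 called genes of lowest adjusted p are named. Members and lists were chosen with earlier results of these data known. The protocols name no molecular identifiers for the amplified reads.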

Additional observations from a re-analysis of the deposited data

Results flagged for a closer look

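In 5 of 86 groups of 5 mice, 1 mouse stood far from the others by Dixon's test at the 95% level, and chance gives about 1 in 20 groups. Rab4a was 12.3 CPM in LPS replicate 5 and 4.00 to 4.82 CPM in the other LPS mice. Rab19 was 9.94 CPM in the same mouse and 1.15 to 3.51 CPM in the others; its mean ratio of LPS to saline was 0.721 with all mice and 0.427 without this one. Rab37, a Rab of mast cell granules, was 1.84 CPM in saline replicate 1 and 0.0808 to 0.570 CPM in the other saline mice, and its mean ratio went from 2.82 to 6.15 without that mouse. None of these 3 genes was called with all mice. Rab42 was 5.98 CPM in saline replicate 5 and 2.80 to 3.72 CPM in the other saline mice. Rab43 was 68.3 CPM in saline replicate 4 and 38.8 to 46.4 CPM in the others.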

How the results depend on the processing

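Of the 21 called Rab genes, 16 kept their direction and call under all 22 alternatives; the exceptions were Rab8b, Rab12, Rab24, Rab42 and Rab43. With the gene-length trend removed, Rab12 turned to a log2 fold change of 0.07, the called recycling members were 5 instead of 3, and the called late endosome members were 3 instead of 5, as they also were on log2(RPKM + 0.1). With 1 mouse left out, the called late endosome members numbered 3 to 5. Over the same fits, 9 to 11 members were higher and 10 to 13 lower, while 37.7% to 50.7% of all genes were called. Other scalings moved the median log2 fold change of all genes to between -0.08 (library size only) and 0.03 (RLE). With no filter 27565 genes were tested, and 3143 were higher and 3154 lower, 22.8% instead of 45.0%. No paired analysis was possible because the labels' mouse numbers are not shared between the groups. Calls of Rab3d and Rab42, with group means under 10 CPM, rest on few reads, and the smallest called changes were 1.33-fold (Rab12 and Rab14).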
